A study of Homo sapiens with 9 samples.

Results

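SIN3A, a scaffold protein of a histone deacetylase complex, was reduced with siRNA in HEK293T cells, and mRNA levels were compared with those of cells given control siRNA. The comparison rests on 6 of the 9 libraries of the series, 3 with control siRNA and 3 with SIN3A siRNA. Its members are all genes with enough counts to be tested, 15972 of the 58734 in the count table, of which 13209 are protein-coding. The other 3 libraries, from cells given SIN3B siRNA, serve only as context. HEK293T cells derive from human embryonic kidney and express the SV40 large T antigen, a viral protein that binds p53 and the retinoblastoma proteins; every group shares it. All cells were transfected with 10 nM siRNA by a lipid reagent for 36 h, and poly-A RNA was then sequenced with a stranded kit. Groups follow the sample titles, because the treatment text names the control siRNA for each of the samples. The number of siRNAs used against SIN3A and their sequences are not given in the sources used here.

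SIN3A has no known DNA-binding activity of its own. It is brought to promoters by DNA-binding proteins such as the MAD family partners of MAX, and REST, the repressor of neuronal genes in other cells. On it are assembled the deacetylases HDAC1 and HDAC2, the histone-binding RBBP4 and RBBP7, and subunits of the SAP, SUDS3, ING and ARID4 families. The complex is best known as a corepressor, but it is also found at active promoters. SIN3B is its paralog and forms a related complex.

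Each library held 22542798 to 25818926 deposited counts. About 98% of nonzero counts were multiples of 4, so 12 counts (3 units of 4) were taken as the floor below which a level cannot be told from 0. The floor equals 0.466 to 0.554 CPM and covers counting error only. CPM, the level unit used throughout, are counts scaled to 1000000 per library with TMM factors. On the first principal component, which held 42.7% of the variance, the 3 SIN3A knockdown libraries lay apart from the 3 controls. SIN3A knockdown replicate 1 lay apart from the other two knockdown libraries on the second (18.8%). Between replicates the chi-square per degree of freedom was 1.57 to 1.86 for controls and 3.53 to 7.37 for the knockdown, so the knockdown libraries lay further apart. Whether the replicates are separate transfections is not stated in the labels; p-values therefore reflect only how far these libraries differ, possibly for technical reasons. Among markers of other cell types, 3 of 15 epithelial, 3 of 12 fibroblast, 5 of 14 haematopoietic and 5 of 10 endothelial genes had no count in the 6 libraries, PTPRC (CD45), DCN and CDH5 among them. The summed level of the epithelial list was 166 to 173 CPM in controls and 156 to 183 CPM in the knockdown, of the fibroblast list 33.0 to 35.4 and 34.5 to 45.4 CPM, of the haematopoietic list 12.1 to 14.3 and 10.6 to 16.4 CPM, and of the endothelial list 21.1 to 29.2 and 20.8 to 23.0 CPM.

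The targeted gene was lower in each knockdown library. SIN3A (ENSG00000169375; GRCh38 chromosome 15, 75369379 to 75455842, minus strand) was at 141, 148 and 148 CPM in the 3 control libraries and at 45.1, 49.6 and 46.9 CPM in the 3 knockdown libraries. This left 32.4% of the control level (log2 fold change -1.62 ± 0.08 SE, edgeR adjusted p = 5.1e-08). SIN3B (ENSG00000127511; chromosome 19, 16829400 to 16880353, plus strand) was at 100, 97.5 and 90.7 CPM in controls and 84.9, 105 and 100 CPM in the knockdown. The groups overlapped, and the log2 fold change of SIN3B was 0.01 ± 0.09 (edgeR adjusted p = 0.971). SIN3B siRNA left SIN3A at 145 ± 4.8 CPM (SD, n = 3), and SIN3A differed between the knockdowns by -1.62 ± 0.07 on the log2 scale (edgeR adjusted p = 4e-11).

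Of the genes given as markers of this comparison, CDKN1C rose and SYP and FNDC5 fell. CDKN1C (ENSG00000129757; chromosome 11, 2883213 to 2885773, minus strand), the imprinted cyclin-dependent kinase inhibitor p57, was at 2.06, 2.83 and 1.75 CPM in controls and 7.75, 7.46 and 4.85 CPM in the knockdown (log2 fold change 1.59 ± 0.27, edgeR adjusted p = 0.000997). SYP (ENSG00000102003; chromosome X, 49187804 to 49200259, minus strand), a membrane protein of synaptic vesicles, was at 49.4, 39.8 and 44.2 CPM in controls and 15.3, 12.9 and 14.4 CPM in the knockdown (-1.65 ± 0.12, 1.2e-06). FNDC5 (ENSG00000160097; chromosome 1, 32862268 to 32872482, minus strand), the precursor of the secreted peptide irisin, was at 4.76, 4.88 and 4.19 CPM in controls and 0.738, 0.622 and 0.938 CPM in the knockdown, just above the floor (-2.58 ± 0.32, 8.6e-05). In none of these 3 genes did a knockdown library reach the range of the controls; the groups did not overlap in 37.3% of all genes tested. CDKN1C was at 2.45 ± 0.66 CPM with SIN3B siRNA, and the SIN3A and SIN3B knockdowns differed in it by 1.45 ± 0.27 (edgeR adjusted p = 0.000547). SYP and FNDC5 were lower with SIN3B siRNA too, at 30.8 ± 3.3 and 2.39 ± 0.62 CPM, and the direct comparison had them lower in the SIN3A knockdown than in the SIN3B knockdown, by -1.11 ± 0.12 and -1.63 ± 0.32 (edgeR adjusted p = 1.1e-06 and 0.000871).

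**Figure D1:**
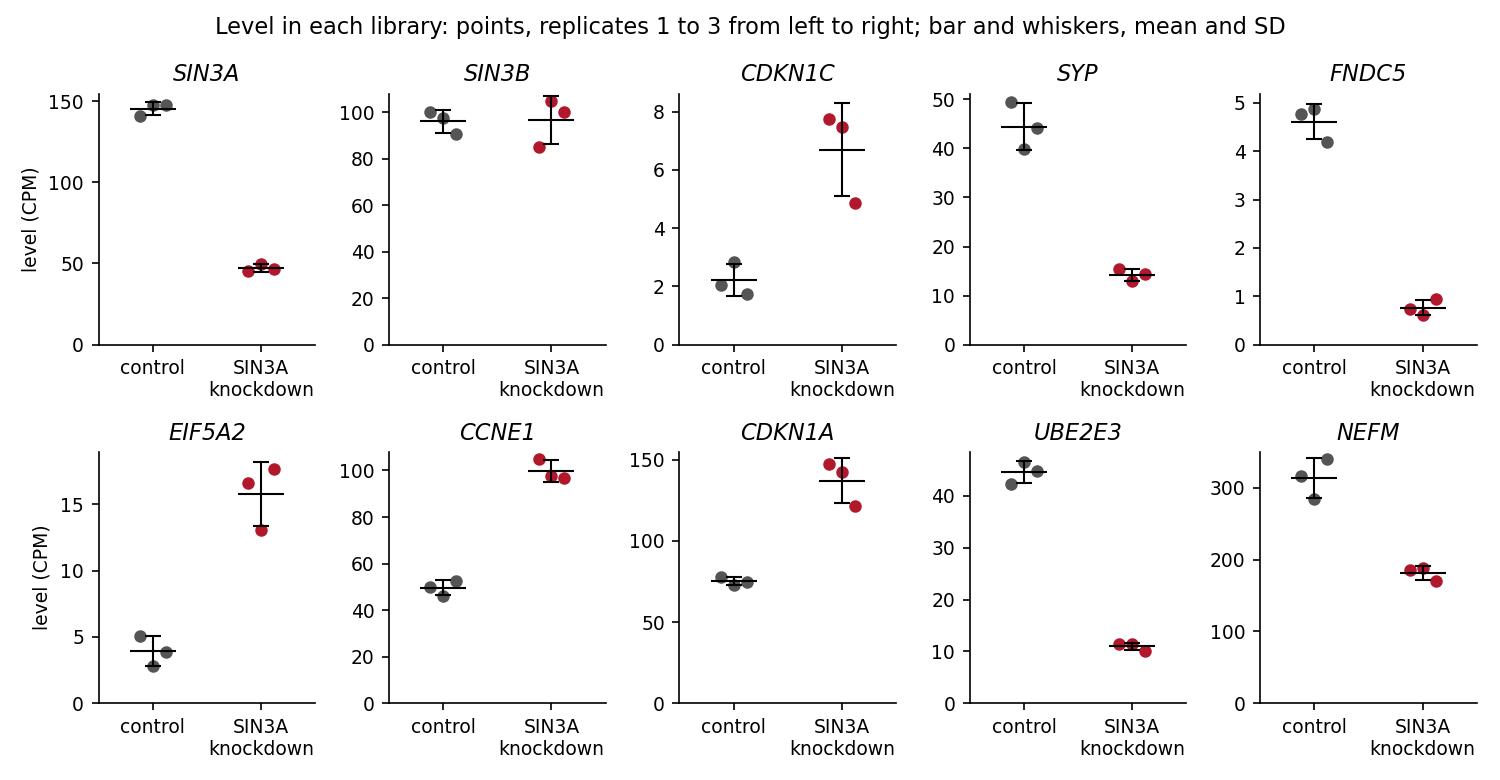
Level of 10 genes in CPM (linear axes from 0) in each control and SIN3A knockdown library, with the mean and SD of the 3 libraries of a group. SIN3A, SYP, FNDC5, UBE2E3 and NEFM were lower and CDKN1C, EIF5A2, CCNE1 and CDKN1A higher in the 3 knockdown libraries than in any control, while the groups overlapped for SIN3B (90.7 to 100 CPM in controls, 84.9 to 105 CPM in the knockdown).

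Rises outnumbered falls among well-expressed genes and falls outnumbered rises among weakly expressed ones, and the large changes were mostly falls. Of all genes tested, 3113 (19.5%) were called at an adjusted p under 0.05, 1621 (10.1%) as rises and 1492 (9.34%) as falls. At least 2-fold changes numbered 74 rises (0.463%) and 344 falls (2.15%). Above 6 log2 CPM, 583 of 3656 genes rose and 292 fell, of which 5 rises and 6 falls were at least 2-fold. Between 1 and 2 log2 CPM 27 of 1262 genes rose and 134 fell, and the median log2 fold change over these genes was -0.21, against 0.06 above 6 log2 CPM and 0.00 over all genes. The balance moved with the scaling. With upper-quartile factors the calls were 1110 rises and 1927 falls, so that rises made up 36.5% of calls in place of 52.1%, and the median of all genes moved to -0.06.

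**Figure D2:**
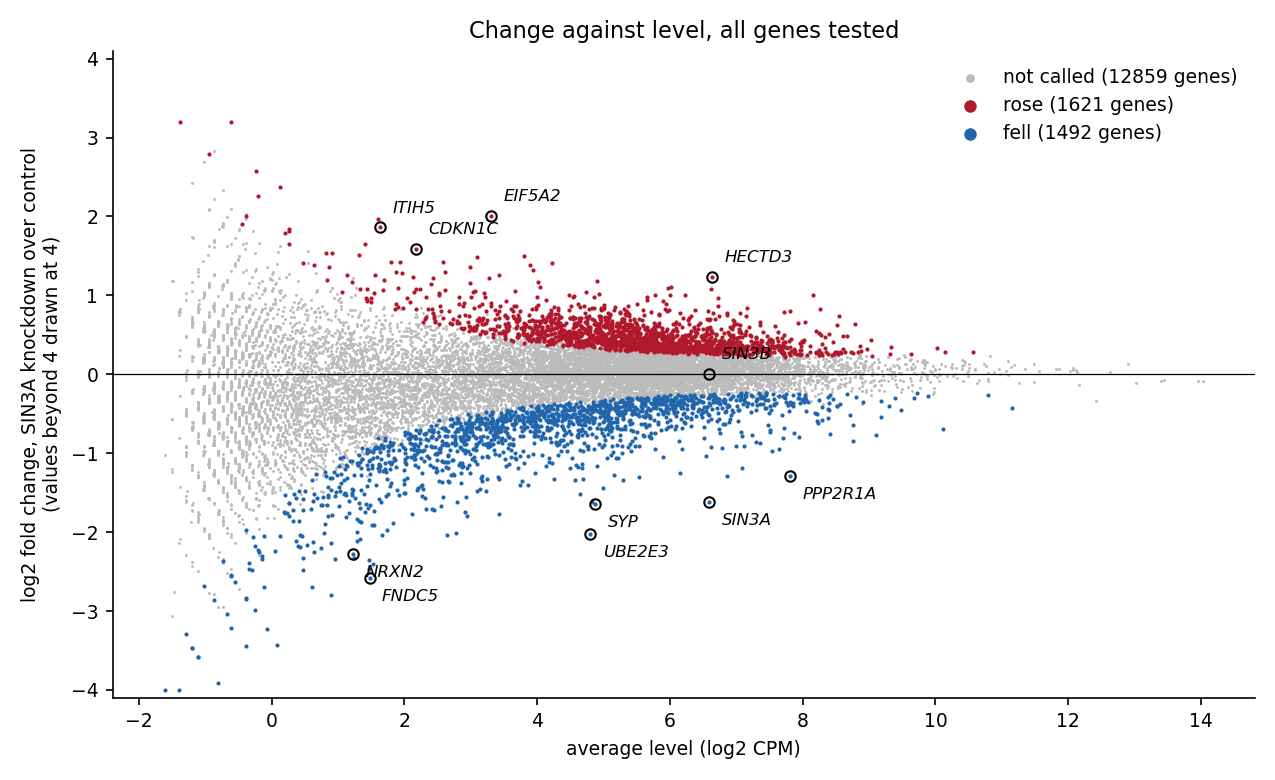
Log2 fold change (SIN3A knockdown over control) of each gene tested against its average level in log2 CPM, with 1621 rises in red, 1492 falls in blue and other genes in grey. Most of the 344 falls of at least 2-fold lay at low levels, and SIN3A, PPP2R1A, SYP and UBE2E3 stand out below the better expressed genes.

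The calls also differed with base composition and with the number of libraries. Among genes above 2 log2 CPM, 21.6% rose and 4.37% fell in the lowest of 5 GC classes of equal size (30.2 to 40.8% GC), and 12.2% rose and 15.6% fell in the highest (58.1 to 74.5% GC). Median log2 fold changes of these lowest and highest GC classes were 0.17 and 0.00 here and 0.30 and -0.15 in the SIN3B knockdown, which shares the controls. The part of GC content in the gene groups below was not tested, and counts under offsets for GC and exon length are given beside the lists with a median GC content under 45%. Without control replicate 1, 2 or 3 the calls fell to 1617, 1604 and 1492, and without SIN3A knockdown replicate 1, 2 or 3 they were 3289, 2822 and 2865. The count fell further without any 1 control library than without any 1 knockdown library. In the gene groups below, counts above 5 are also given without single libraries where they moved by more than 1.5 times. Of 64 counts of 1 to 5 in the lists, 56 moved by more than 1.5 times when some library was left out, 50 of them for a control library, so each of these small counts rests on few genes.

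EIF5A2 headed the rises among genes above 1 log2 CPM. EIF5A2 (ENSG00000163577; chromosome 3, 170888415 to 170908693, minus strand), a paralog of the translation factor eIF5A, was at 5.08, 2.83 and 3.84 CPM in controls and 16.6, 13.1 and 17.7 CPM in the knockdown (2.01 ± 0.21, edgeR adjusted p = 2e-05). ITIH5, a heavy chain of the inter-alpha-trypsin inhibitor family, was at 1.43, 1.57 and 0.874 CPM in controls and 4.06, 5.13 and 5.00 CPM in the knockdown (1.86 ± 0.31). MIR22HG, the host transcript of microRNA 22, went from 4.44 ± 0.52 to 12.5 ± 1.1 CPM (1.49 ± 0.17), and FAM214B from 7.22 ± 1.1 to 20.4 ± 1.8 CPM (1.503 ± 0.152). FBXO33, an F-box protein, rose by 1.41 ± 0.15, ANKRD12, an ankyrin repeat protein, by 1.38 ± 0.19 and DACT3, an antagonist of Wnt signalling, by 1.35 ± 0.26. DENND1C (1.42 ± 0.21), VMAC (1.42 ± 0.28), the muscle sodium channel SCN4A (1.43 ± 0.28) and SMIM10L2B (1.32 ± 0.14) were also among the 15 largest rises, with CDKN1C, the cilia protein SPEF1 (1.65 ± 0.42) and the noncoding AC090181.2 and AC023024.1. SPEF1 was the only one of these whose call was lost with a library left out, at 1.32 (edgeR adjusted p = 0.0616) without control replicate 1 and 1.48 (0.0535) without SIN3A knockdown replicate 2.

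Most of the 15 largest falls above 1 log2 CPM were genes that controls expressed at under 6 CPM. Besides FNDC5 and SYT2 they included FAM198A (-2.40 ± 0.34), FNDC1, a fibronectin repeat protein (-2.36 ± 0.36), the acyl-CoA synthetase ACSL6 (-2.33 ± 0.39), the presynaptic adhesion protein NRXN2 (-2.28 ± 0.43), the cation exchanger SLC24A4 (-2.11 ± 0.35) and ELFN2 (-2.09 ± 0.41). In NRXN2, for example, controls were at 4.29, 3.93 and 2.97 CPM and knockdown libraries at 0.738, 0.311 and 1.25 CPM, so that 1 of the 3 lay under the floor, and ACSL6 and ELFN2 likewise had 1 library under it. ELFN2, SYT2 (-2.47 ± 0.32), DISP2 (-2.04 ± 0.36), ACOT11 (-2.002 ± 0.386) and SLC6A17 (-1.92 ± 0.42) share 482 to 2111 exon bases with genes on the opposite strand, and their values are uncertain because no source used here gives the strand setting of the counting. NOS2, the inducible nitric oxide synthase, fell from 5.195 ± 0.98 to 1.31 ± 0.08 CPM and the transcript DGCR5 from 9.94 ± 1.4 to 2.42 ± 0.22 CPM. UBE2E3 (ENSG00000170035; chromosome 2, 180967248 to 181076585, plus strand), a ubiquitin-conjugating enzyme, was the best expressed of the 15 in controls. Its control libraries were at 42.4, 46.6 and 44.7 CPM and its knockdown libraries at 11.4, 11.4 and 10.2 CPM, which left 24.6% of the control level (-2.02 ± 0.12, edgeR adjusted p = 1e-07). The level of UBE2E3 with SIN3B siRNA was 46.8 ± 2.7 CPM, and the direct comparison of the knockdowns gave -2.09 ± 0.10 (edgeR adjusted p = 7.7e-11).

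Genes above 6 log2 CPM changed less, but for most of those named here the libraries of a group lay close together. Exceptions were GOLGA4, at 173.5, 110.5 and 133.6 CPM in the knockdown, and PMAIP1, at 39.3, 29.4 and 56.4 CPM. The rises were led by HECTD3, a ubiquitin ligase, at 63.0, 56.6 and 57.1 CPM in controls and 136, 144 and 136 CPM in the knockdown (1.24 ± 0.08, edgeR adjusted p = 6.1e-07). PSME1, a subunit of the proteasome activator PA28, went from 41.3 ± 2.1 to 88.6 ± 12 CPM (1.10 ± 0.11). Cyclin E1, encoded by CCNE1, which drives entry into S phase with CDK2, was at 49.8, 46.3 and 52.6 CPM in controls and 105, 97.6 and 96.7 CPM in the knockdown (1.01 ± 0.09, edgeR adjusted p = 5.4e-06). VAT1 rose from 190 ± 10 to 381 ± 35 CPM (1.01 ± 0.09), and CDKN1A, the CDK inhibitor p21, from 75.2 ± 2.7 to 137 ± 14 CPM (0.87 ± 0.09). The golgin GOLGA4 (0.97 ± 0.13), NSMF (0.84 ± 0.09), the tropomyosin TPM3 (0.83 ± 0.08) and EFCAB14 (0.81 ± 0.09) were also among the 10 largest rises.

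After SIN3A itself, the falls above 6 log2 CPM were led by CKAP4, a protein of endoplasmic reticulum sheets, at 167, 162 and 163 CPM in controls and 69.6, 65.3 and 66.3 CPM in the knockdown (-1.29 ± 0.08, edgeR adjusted p = 2.1e-07). PPP2R1A, the scaffold subunit of protein phosphatase PP2A, was at 300.0, 335 and 316 CPM in controls and 142, 134 and 114 CPM in the knockdown (-1.29 ± 0.09, edgeR adjusted p = 6.8e-07); it shares 710 exon bases with an opposite-strand gene. RAB7A, the Rab GTPase of late endosomes, was at 191, 194 and 180 CPM in controls and at 82.3, 82.5 and 83.6 CPM in the knockdown (-1.19 ± 0.08, edgeR adjusted p = 4.3e-07). PMAIP1, which encodes the proapoptotic NOXA, fell by 1.26 ± 0.17 on the log2 scale. MID1, a microtubule-bound ubiquitin ligase, fell by 1.04 ± 0.08, KCTD20 by 0.95 ± 0.09 and TMED10, a cargo receptor between endoplasmic reticulum and Golgi, by 0.94 ± 0.09. ZNF503, a zinc finger protein, fell by 0.97 ± 0.08. For each of these genes the call held in every alternative in which the gene was tested.

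A pair of 7-base sequences, picked in an earlier scan of these same data, was found in many of these falls. AGGTCTA or GGTCTAA stands in the annotated 3′ UTR of 7 of the 10 largest falls above 6 log2 CPM. Of the 290 falls above 6 log2 CPM that were searched, 25.5% held a match. The share was 9.93% of the 11040 genes above 2 log2 CPM whose 3′ UTR was searched on the mRNA strand. The windows below, from 6 of the 7 genes and from SIN3A, are shown because these genes are among the largest falls of high expression. They are read from GENCODE 29 transcripts on GRCh38, 5′ to 3′ on the mRNA strand, with the match in capitals.
PPP2R1A, 3′ UTR, chr19:52226395-52226423, plus strand: cagagaaataaAGGTCTAgaagtagttgg
PMAIP1, 3′ UTR, chr18:59904216-59904244, plus strand: ctggtatttatGGTCTAAtttgtatttaa
RAB7A, 3′ UTR, chr3:128814706-128814734, plus strand: cctttttccaaAGGTCTAcattctagggt
MID1, 3′ UTR, chrX:10447376-10447404, minus strand: ctaaataaaagGGTCTAAaactcagcttc
KCTD20, 3′ UTR, chr6:36490057-36490085, plus strand: ctaatatatacAGGTCTAtgaaaatactg
TMED10, 3′ UTR, chr14:75134640-75134668, minus strand: tttgcaacaatAGGTCTAttattagagtc
SIN3A, coding sequence, chr15:75394706-75394735, minus strand: ccaaggtcctgAGGTCTAAgagcttactca
SIN3A, coding sequence, chr15:75414236-75414264, minus strand: tagtcagcctcAGGTCTAcaatgatttcc
The first of the SIN3A windows holds the 8-base form AGGTCTAA, which combines both 7-base sequences. The coding sequence of SIN3A, the targeted mRNA, holds it once, and 2.27% of the 19684 longest mRNAs of protein-coding genes hold it anywhere. Pairing of the siRNA with these sequences was not tested.

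The share of genes that fell rose with the length of the match in the 3′ UTR. It was 9.20% of 9026 genes with no match, 14.2% of 918 with only the 6 bases GGTCTA, 18.2% of 516 with AGGTCTA, 20.5% of 381 with GGTCTAA and 27.6% of 199 with AGGTCTAA. Genes with a match had longer 3′ UTRs, with medians of 3259 to 3591 bases against 1499 with none, so the genes were also split by 3′ UTR length. In the shortest of 4 length classes (up to 834 bases) 37.7% of the 61 genes with a 7-base match fell, against 9.44% of 2700 without, and in the longest 15.4% of 589 fell against 9.82% of 2170. The median log2 fold change of the 1096 genes with a match was -0.03, against 0.05 for the 9944 without, and in the SIN3B knockdown the medians were 0.06 and 0.00. Of the fallen genes searched, 19.1% held a match, and of those above 6 log2 CPM 25.5% (74 of 290). Genes that rose held matches too, such as TAX1BP1 with AGGTCTAA (0.74 ± 0.09) and TP53INP1 with AGGTCTA (1.17 ± 0.15). As the sequences came from these data, these shares are a description. Most fallen genes, CKAP4, UBE2E3, SYP and CPLX1 among them, held neither sequence in the annotated 3′ UTR, and without all genes that held either, 1421 genes rose and 1239 fell.

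**Figure D3:**
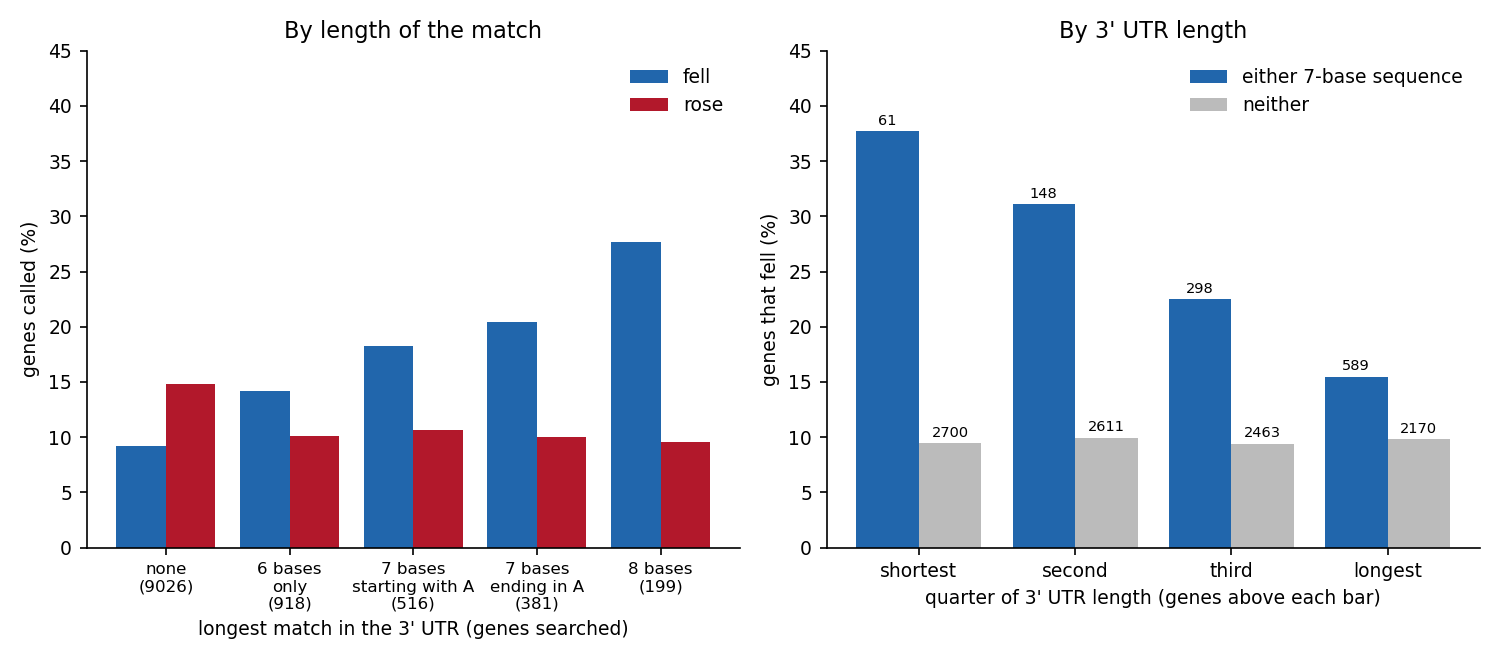
Left, percent of genes that fell (blue) or rose (red) by the longest match to AGGTCTAA in the 3′ UTR, with the number of genes searched under each pair of bars; the share that fell runs from 9.20% without a match to 27.6% with 8 bases. Right, percent that fell by class of 3′ UTR length, with (blue) and without (grey) a 7-base match and the number of genes above each bar; it runs from 37.7% to 15.4% with a match and stays between 9.42% and 9.96% without.

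GOLGA4 and ZNF503 above and, of the genes named below, BRD2, KRT8, DDIT4, TAX1BP1, PRDX1, H1FX, ITGA6 and CDH1 share 345 to 847 exon bases with opposite-strand genes, so their values carry the same uncertainty. Of 6 lists of neuronal genes, those of vesicle, adhesion, cytoskeleton, channel and receptor genes had 24.1% to 29.6% of their tested members fall, and that of axon guidance genes 16.4%. The first 5 lists have median levels of 0.87 to 3.88 log2 CPM, against 4.39 for all genes, and a gene can be tested through its level in the controls alone, so the counts describe the members tested and not each list as a whole. Of 33 synaptic vesicle and exocytosis genes tested (46 listed), 9 fell and 2 rose (median log2 fold change -0.25). The list's median level was 3.09 log2 CPM, and of all genes between 2 and 4 log2 CPM 15.9% fell, with a median of -0.10. The median levels of the cytoskeleton, channel and adhesion lists lie in the same range. Of all genes tested 9.34% fell. Besides SYP, CPLX1, a complexin that clamps vesicle fusion, was at 10.6, 10.1 and 11.7 CPM in controls and 3.88, 2.80 and 1.41 CPM in the knockdown (-2.01 ± 0.27, edgeR adjusted p = 0.00017). BSN, the presynaptic scaffold bassoon, was at 18.3, 20.3 and 19.4 CPM in controls and 4.06, 9.33 and 8.44 CPM in the knockdown (-1.40 ± 0.22, edgeR adjusted p = 0.000572). SYPL1, a synaptophysin relative found outside neurons, rose from 23.1 ± 1.8 to 36.1 ± 2.8 CPM (0.65 ± 0.11). Without control replicate 1, 5 of the vesicle genes fell.

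Of 27 neurofilament and neuronal cytoskeleton genes tested, 8 fell and 1 rose, with a median of -0.81. NEFM, the medium neurofilament subunit, was the best expressed of those named, at 317, 285 and 340 CPM in controls and 185, 189 and 170 CPM in the knockdown (-0.79 ± 0.09, edgeR adjusted p = 2.9e-05); 1706 of its exon bases overlap an opposite-strand gene. The intermediate filament internexin, INA, went from 72.3 ± 1.1 to 37.6 ± 4.1 CPM (-0.94 ± 0.10), the microtubule regulator STMN3 from 56.3 ± 2.6 to 28.7 ± 3.3 CPM (-0.97 ± 0.11) and the atypical cadherin CELSR3 from 60.5 ± 7.7 to 32.0 ± 4.6 CPM (-0.91 ± 0.12). The single rise, STMN1 (0.32 ± 0.09, edgeR adjusted p = 0.0206), was not called without any 1 control library (0.0686 to 0.106) or with upper-quartile factors (0.0611). INA and NEFM were also lower in the SIN3B knockdown (-1.20 ± 0.10 and -0.83 ± 0.08), and the direct difference between knockdowns was not called for either (edgeR adjusted p = 0.0596 and 0.752).

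Among 43 voltage-gated sodium, calcium and potassium channels tested, 11 fell and 1 rose (median -0.27). KCNC1, a fast potassium channel, went from 13.8 ± 1.2 to 4.90 ± 2.2 CPM (-1.48 ± 0.24), and the single rise was SCN4A. Of 22 neurotransmitter receptors tested (58 listed), 6 fell and 1 rose (median -0.82, median level 0.87 log2 CPM). Of all genes between 0 and 1 log2 CPM, 4.76% fell and 0.873% rose, with a median of -0.30. GABBR2, a subunit of the metabotropic GABA receptor, was at 9.36, 7.55 and 7.86 CPM in controls and 2.22, 2.18 and 3.13 CPM in the knockdown (-1.72 ± 0.23, edgeR adjusted p = 0.000139). The single rise was GRIN2D, an NMDA receptor subunit, which went from 15.1 ± 2.2 to 24.7 ± 4.5 CPM (0.71 ± 0.15). Of 29 synaptic adhesion and scaffold genes 7 fell and 1 rose (median -0.23), among them the scaffold HOMER2 at -0.44 ± 0.09. Without control replicates 1 and 3 the channels that fell numbered 6 and 7, and 7 without SIN3A knockdown replicate 1; the receptors numbered 3 without control replicate 2 or 3, and the adhesion genes 4 without control replicate 3. In the SIN3B knockdown, which shares the controls, the medians of the channel, receptor and adhesion lists were -0.27, -0.64 and -0.16. Those of the vesicle and cytoskeleton lists were -0.07 and -0.30, against -0.02 for all genes.

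Of 61 axon guidance genes tested, 10 fell and 5 rose (median -0.05), 16.4% and 8.20%, at a median level of 4.1 log2 CPM. Of all genes 15.9% fell and 6.70% rose between 2 and 4 log2 CPM, and 10.0% and 15.5% between 4 and 6. SLIT2, a secreted guidance cue and the best expressed of those named, was at 392, 390 and 409 CPM in controls and 254, 284 and 274 CPM in the knockdown (-0.55 ± 0.08, edgeR adjusted p = 0.000237). The ephrin receptors EPHA10 (-1.89 ± 0.29) and EPHA8 (-1.27 ± 0.19) and the netrin receptor UNC5A (-1.52 ± 0.27) fell, and the ephrin receptor EPHA7 rose (0.71 ± 0.13). Without control replicates 1, 2 and 3 the falls numbered 6, 5 and 6 and the rises 3, 2 and 2, and without SIN3A knockdown replicate 1 the rises numbered 8. The median of the axon guidance list in the SIN3B knockdown was -0.27.

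REST, which represses neuronal genes in other cells and recruits SIN3A, rose. It was at 26.2, 24.2 and 25.0 CPM in controls and 39.1, 37.0 and 44.4 CPM in the knockdown (0.68 ± 0.11, edgeR adjusted p = 0.000752). Of 15 genes of REST and its CoREST partners, 3 rose and 0 fell by edgeR (1 fell at an unadjusted p under 0.05, and 1 by DESeq2). A REST-type element was looked for in RefSeq promoters (250 bases before to 50 after the start, GRCh38.p14), as AGCACCNNGGACAG on both strands. It stands in 0.0586% of 27305 promoters and in 5 of the 10956 of tested genes, and all 5 are given here. SCAMP5, a membrane carrier protein of synaptic vesicles, was at 37.5, 38.7 and 34.6 CPM in controls and 12.7, 14.5 and 11.4 CPM in the knockdown (-1.52 ± 0.12, edgeR adjusted p = 2.8e-06). OGDHL fell by 0.59 ± 0.13 on the log2 scale (edgeR adjusted p = 0.00709; 0.057 without control replicate 3). SYN1, the vesicle protein synapsin I, was at 1.43, 1.26 and 1.40 CPM in controls and at 0.185, 0.155 and 0.469 CPM, at or under the floor, in the knockdown; it passed the test (edgeR adjusted p = 0.0163). The fitted difference of SYN1 (-2.30 ± 0.61) depends on the prior count at this level. It stayed at -2.36 to -2.02 where the call was lost, without any 1 control library (edgeR adjusted p = 0.0604 to 0.0703) and without SIN3A knockdown replicate 1 or 2 (0.05 and 0.0619). On log2(FPKM + 1) it was not called either (limma adjusted p = 0.0562). UCN (-0.01 ± 0.33) and TMEM179 (-1.40 ± 0.56, edgeR adjusted p = 0.0914) did not pass. The promoters of the 2 vesicle genes are shown with the element in capitals, which starts 174 bases before the start of SCAMP5 and 230 bases before that of SYN1.
SCAMP5, chr15:74995313-74995612, plus strand: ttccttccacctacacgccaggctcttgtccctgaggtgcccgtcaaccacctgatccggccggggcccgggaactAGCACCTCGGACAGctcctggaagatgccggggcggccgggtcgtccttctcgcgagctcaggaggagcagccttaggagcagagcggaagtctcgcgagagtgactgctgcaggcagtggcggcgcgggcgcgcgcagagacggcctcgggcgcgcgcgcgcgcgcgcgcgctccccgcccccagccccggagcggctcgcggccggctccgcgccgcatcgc
SYN1, chrX:47619808-47620107, minus strand: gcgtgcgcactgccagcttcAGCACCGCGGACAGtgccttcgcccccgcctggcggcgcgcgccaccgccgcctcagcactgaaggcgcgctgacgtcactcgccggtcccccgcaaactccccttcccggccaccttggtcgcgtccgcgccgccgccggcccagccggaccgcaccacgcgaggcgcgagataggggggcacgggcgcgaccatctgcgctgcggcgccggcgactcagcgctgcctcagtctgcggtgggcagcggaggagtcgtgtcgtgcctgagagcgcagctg
The sequence GGACAGC, which shares 6 bases with the element's end, stands in 6.54% of tested promoters, 5.72% of those of genes that rose and 8.52% of those that fell (13.5% for the 215 that fell at least 2-fold). The E-box CACGTG stands in 10.1% of tested promoters, 10.7% of those of genes that rose and 11.5% of those that fell, and the CCAAT box in 36.6%, 42.6% and 31.5%. Among the 215 that fell at least 2-fold, 7.91% held the E-box and 26.5% the CCAAT box.

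Falls outnumbered rises in the lists of cadherins, collagens and matrix glycoproteins, as they did among all genes between 2 and 4 log2 CPM (15.9% fell and 6.70% rose), where the median levels of these lists lie. The shares that fell were 32.0%, 23.3% and 25.5%. Of 25 cadherins outside the protocadherin clusters, 8 fell and 0 rose by edgeR (median -0.37; 2 rises at an unadjusted p under 0.05, and 0 by DESeq2). CLSTN1, calsyntenin 1, was at 169, 167 and 164 CPM in controls and 77.5, 95.3 and 93.5 CPM in the knockdown (-0.91 ± 0.09, edgeR adjusted p = 1.5e-05). CDH1, the epithelial cadherin, was at 11.4, 11.96 and 10.3 CPM in controls and 3.14, 3.11 and 5.16 CPM in the knockdown (-1.56 ± 0.21, edgeR adjusted p = 0.000194). Other epithelial genes moved the same way, MUC1 from 4.09 ± 0.41 to 1.28 ± 0.50 CPM and keratin KRT8 from 21.5 ± 1.6 to 14.1 ± 1.8 CPM; 4 of the 9 epithelial markers tested fell and 1 rose, while the summed level of the list overlapped between groups. Of 30 collagens 7 fell and 1 rose (median -0.31), among them COL4A1 of basement membranes, from 39.5 ± 2.2 to 21.3 ± 3.1 CPM (-0.89 ± 0.12), the cartilage collagen COL2A1 (-0.57 ± 0.09) and COL9A2 (-1.87 ± 0.34).

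Of 55 laminins, integrins and matrix glycoproteins, 14 fell and 6 rose (median -0.25). SPON1, F-spondin, was at 15.7, 16.1 and 13.8 CPM in controls and 6.09, 5.75 and 6.25 CPM in the knockdown (-1.33 ± 0.15, edgeR adjusted p = 4.8e-05), and laminin LAMA1 fell by 1.02 ± 0.13 (1754 exon bases overlap an opposite-strand gene). AGRN, the matrix proteoglycan agrin, rose from 79.6 ± 4.8 to 133 ± 21 CPM (0.74 ± 0.11) and the integrin subunit ITGA6 from 36.3 ± 1.2 to 53.9 ± 2.8 CPM (0.57 ± 0.10). Without control replicates 2 and 3, 4 and 3 collagens fell. Without control replicate 1 or 3, 9 matrix glycoproteins fell, and without control replicate 2, 3 rose. The medians of the cadherin, collagen and matrix glycoprotein lists in the SIN3B knockdown were -0.14, -0.28 and -0.33.

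Of 49 Wnt pathway genes, 11 fell and 4 rose (median -0.17). WNT5B, a ligand, was at 7.62, 7.39 and 7.51 CPM in controls and 2.03, 2.33 and 2.50 CPM in the knockdown (-1.71 ± 0.22, edgeR adjusted p = 0.000103). The receptors FZD7 (-1.01 ± 0.13) and FZD10 (-0.81 ± 0.16), the stem cell receptor LGR5 (-1.40 ± 0.25) and the kinase GSK3B (-0.49 ± 0.10) fell, and APC, which acts in the destruction complex of beta-catenin, rose (0.51 ± 0.11). Of 37 HOX genes, 11 fell and 1 rose (median -0.23): HOXB9, the best expressed of those named, went from 378 ± 14 to 292 ± 19 CPM (-0.37 ± 0.08), HOXC4 fell by 0.50 ± 0.10 and HOXC6 by 0.51 ± 0.11, and HOXA7, with 1507 exon bases under an opposite-strand gene, rose by 0.73 ± 0.12. Without control replicates 1, 2 and 3, 7, 6 and 5 HOX genes fell. The medians of the Wnt and HOX lists in the SIN3B knockdown were -0.28 and -0.09. The Notch list had 5 falls and 0 rises in 33 genes by edgeR (6 rises at an unadjusted p under 0.05, and 0 by DESeq2), the Hedgehog list 3 and 0 in 15 (0 rises by either), the TGF-beta and BMP list 5 and 4 in 55 and the FGF and MAP kinase feedback list 7 and 3 in 44 (15.9% and 6.82%, against 15.9% and 6.70% of all genes at 2 to 4 log2 CPM, where its median level lies). Of the FGF list 3 fell without control replicate 1 or 3. The Wnt, HOX and TGF-beta lists had 22.45%, 29.7% and 9.09% of tested members fall and 8.16%, 2.70% and 7.27% rise. Their median levels lie between 4 and 6 log2 CPM, where 10.0% of all genes fell and 15.5% rose. Those of the Wnt and TGF-beta lists lie close to 4, and from 2 to 4 log2 CPM 15.9% fell and 6.70% rose. The TGF-beta list had a smaller share of falls than all genes at either level.

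Of the 56 lists, cell-cycle inhibitors and p53 targets had the largest shares of rises with all 6 libraries, 53.3% and 51.5%. Between 4 and 6 log2 CPM, where the median levels of both lists lie, 15.5% of all genes rose. The first list, which holds CDK inhibitors with RB1 and its relatives, had 8 rises and 1 fall in 15 genes (median 0.32; 5 rises with upper-quartile factors, and 7 under the GC and length offsets at a GC content of 44.6%), the second 17 rises and 2 falls in 33 (median 0.40), with CDKN1A in both. CDKN1B, the inhibitor p27, was at 28.4, 30.1 and 29.5 CPM in controls and 49.3, 43.2 and 61.3 CPM in the knockdown (0.81 ± 0.12, edgeR adjusted p = 0.00049), and CDKN2D, the inhibitor p19 of the INK4 family, went from 5.39 ± 1.8 to 11.2 ± 0.67 CPM (1.06 ± 0.21). RB1, the retinoblastoma protein, fell instead, from 45.6, 43.7 and 45.1 CPM to 17.4, 19.3 and 27.5 CPM (-1.06 ± 0.14, edgeR adjusted p = 0.000188), and its 3′ UTR holds GGTCTAA. Of the p53 targets, TP53INP1, which promotes cell death and autophagy, was at 10.8, 9.12 and 9.61 CPM in controls and 18.6, 21.6 and 26.1 CPM in the knockdown (1.17 ± 0.15, edgeR adjusted p = 0.000121). The 3′ UTR of TP53INP1, which rose, holds AGGTCTA. The antiproliferative BTG2 rose from 45.7 ± 3.1 to 80.7 ± 7.3 CPM (0.82 ± 0.10) and the proapoptotic BAX from 98.3 ± 7.7 to 152 ± 7.8 CPM (0.63 ± 0.09). PMAIP1 was among the 2 members that fell. Without control replicates 1 and 2 the p53 targets that rose numbered 10 and 8, and without any single control library 4 CDK inhibitors rose.

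The E2F-driven G1/S list had 8 rises, led by CCNE1, and 3 falls in 49 genes (median 0.07; 4 and 3 with upper-quartile factors), while GINS1, a subunit of the replicative helicase, fell from 68.1 ± 2.8 to 44.9 ± 5.1 CPM (-0.60 ± 0.10). The shares of the E2F list were 16.3% rises and 6.12% falls. Of all genes above 6 log2 CPM, where the median levels of the E2F and G2/M lists lie, 15.95% rose and 7.99% fell. Only 1, 4 and 2 of the E2F list rose without control replicates 1, 2 and 3. Of 48 G2/M genes 12 rose and 4 fell, but the median log2 fold change of the list was -0.03, and with upper-quartile factors the counts were 8 and 9. The rises were led by the spindle checkpoint kinase TTK, at 49.2, 47.0 and 38.8 CPM in controls and 88.2, 65.8 and 82.4 CPM in the knockdown (0.81 ± 0.12, edgeR adjusted p = 0.000403), and the mitotic kinesins CENPE (0.89 ± 0.15), KIF20B (0.82 ± 0.13), KIF14 (0.65 ± 0.13) and KIF23 (0.48 ± 0.09). The median GC content of the G2/M list was 43.2%, against 48.6% for all genes, and under the GC and length offsets 9 of its genes rose and 8 fell. Of the falls, 1, 1 and 0 were left without control replicates 1, 2 and 3, and of the rises 7 and 6 without control replicates 1 and 3.

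Of lysosome and autophagy genes 28.3% and 40.0% rose, against 10.1% of all genes. Of all genes above 6 log2 CPM, where the median level of the lysosome list lies, 15.95% rose. Between 4 and 6 log2 CPM, where that of the autophagy list lies, 15.5% rose. Of 53 lysosome and V-ATPase genes 15 rose and 4 fell (median 0.12), and of 35 autophagy genes 14 rose and 1 fell (median 0.26). With upper-quartile factors the lysosome counts were 11 rises and 6 falls and the autophagy counts 10 and 1. ATP6V1D, a subunit of the proton pump, was at 35.1, 38.1 and 36.3 CPM in controls and 91.4, 67.0 and 60.6 CPM in the knockdown (1.00 ± 0.13, edgeR adjusted p = 0.000134), and the lysosomal calcium channel MCOLN1 rose from 22.8 ± 2.2 to 38.1 ± 2.3 CPM (0.74 ± 0.11). GAA, the acid alpha-glucosidase, fell from 132 ± 2.6 to 94.9 ± 8.0 CPM (-0.47 ± 0.09). The autophagy receptors TAX1BP1, from 106 ± 5.2 to 177 ± 19 CPM (0.74 ± 0.09), and OPTN, from 25.5 ± 2.2 to 41.9 ± 7.2 CPM (0.71 ± 0.13), rose, as did MAP1LC3B, the membrane marker LC3 (0.42 ± 0.09), and BECN1 (0.39 ± 0.08; 1095 exon bases overlap an opposite-strand gene). The 3′ UTR of TAX1BP1 holds AGGTCTAA. Without control replicates 1, 2 and 3 the autophagy genes that rose numbered 7, 9 and 8, and without control replicate 1, 8 lysosome genes rose.

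Genes of cilia, the hair-like organelles built on microtubules, had 16 rises and 1 fall among 62 (median 0.20). These are 25.8% and 1.61%, against 15.5% and 10.0% of all genes between 4 and 6 log2 CPM, where the list's median level lies. IFT81, a subunit of the intraflagellar transport complex, was at 28.3, 30.2 and 29.5 CPM in controls and 53.5, 47.0 and 43.0 CPM in the knockdown (0.70 ± 0.11, edgeR adjusted p = 0.000508). The transport proteins IFT22 (0.63 ± 0.12) and WDR19 (0.52 ± 0.10) and RPGR (0.72 ± 0.13) rose with it. The median GC content of this list was 43.2%, and under the GC and length offsets 14 rose and 1 fell, with a median of 0.09.

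Among the subunits of the SIN3 complex, the rises outnumbered the falls. Of those tested, 34.6% rose and 11.5% fell. Their median level lies above 6 log2 CPM, where 15.95% of all genes rose and 7.99% fell. Of 26 tested, 9 rose and 3 fell, SIN3A and RBBP4 among the latter (median 0.22; GC content 43.7%; 11 and 4 with the GC and length offsets). HDAC1 was at 257, 278 and 276 CPM in controls and 388, 375 and 367 CPM in the knockdown (0.48 ± 0.08, edgeR adjusted p = 0.000583), ARID4A, a chromatin-binding subunit, went from 18.4 ± 0.86 to 33.5 ± 1.9 CPM (0.87 ± 0.11) and BRMS1 from 51.5 ± 3.1 to 79.9 ± 10 CPM (0.63 ± 0.10). RBBP4 fell from 353, 363 and 377 CPM to 234, 239 and 240 CPM (-0.62 ± 0.07, edgeR adjusted p = 6.6e-05); its 3′ UTR holds AGGTCTAA, and 1706 of its exon bases overlap an opposite-strand gene. Of 16 other deacetylases and sirtuins 2 rose (SIRT7, 0.55 ± 0.10, and SIRT4, 1.20 ± 0.29) and 3 fell, HDAC4 by 0.82 ± 0.17 on the log2 scale. Histone acetyltransferases and BET proteins had 2 rises and 5 falls in 16 genes, BRD2 with the lowest p, from 827 to 602 CPM (-0.46 ± 0.08), and Polycomb genes 4 rises and 3 falls in 27. The deacetylase, acetyltransferase and Polycomb lists had 12.5%, 12.5% and 14.8% rises and 18.75%, 31.25% and 11.1% falls. Between 4 and 6 log2 CPM, 15.5% of all genes rose and 10.0% fell. The median levels of the deacetylase and Polycomb lists lie there, and that of the acetyltransferase list just above 6. Of 35 histone genes, which poly-A selection recovers only in part, 7 fell and 0 rose by edgeR, with 0 rises also at an unadjusted p under 0.05 and by DESeq2 (median -0.24). Examples are the linker histone H1FX, from 157 ± 14 to 104 ± 14 CPM (-0.59 ± 0.10), and H2AFX, from 192 ± 2.9 to 148 ± 12 CPM (-0.38 ± 0.08). The median level of the histone list lies between 1 and 2 log2 CPM, where 10.6% of all genes fell and 2.14% rose. The median log2 fold change of all genes there was -0.21, close to that of the histone list. Histone falls numbered 3 without control replicate 3 and 11 without SIN3A knockdown replicate 1.

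**Figure D4:**
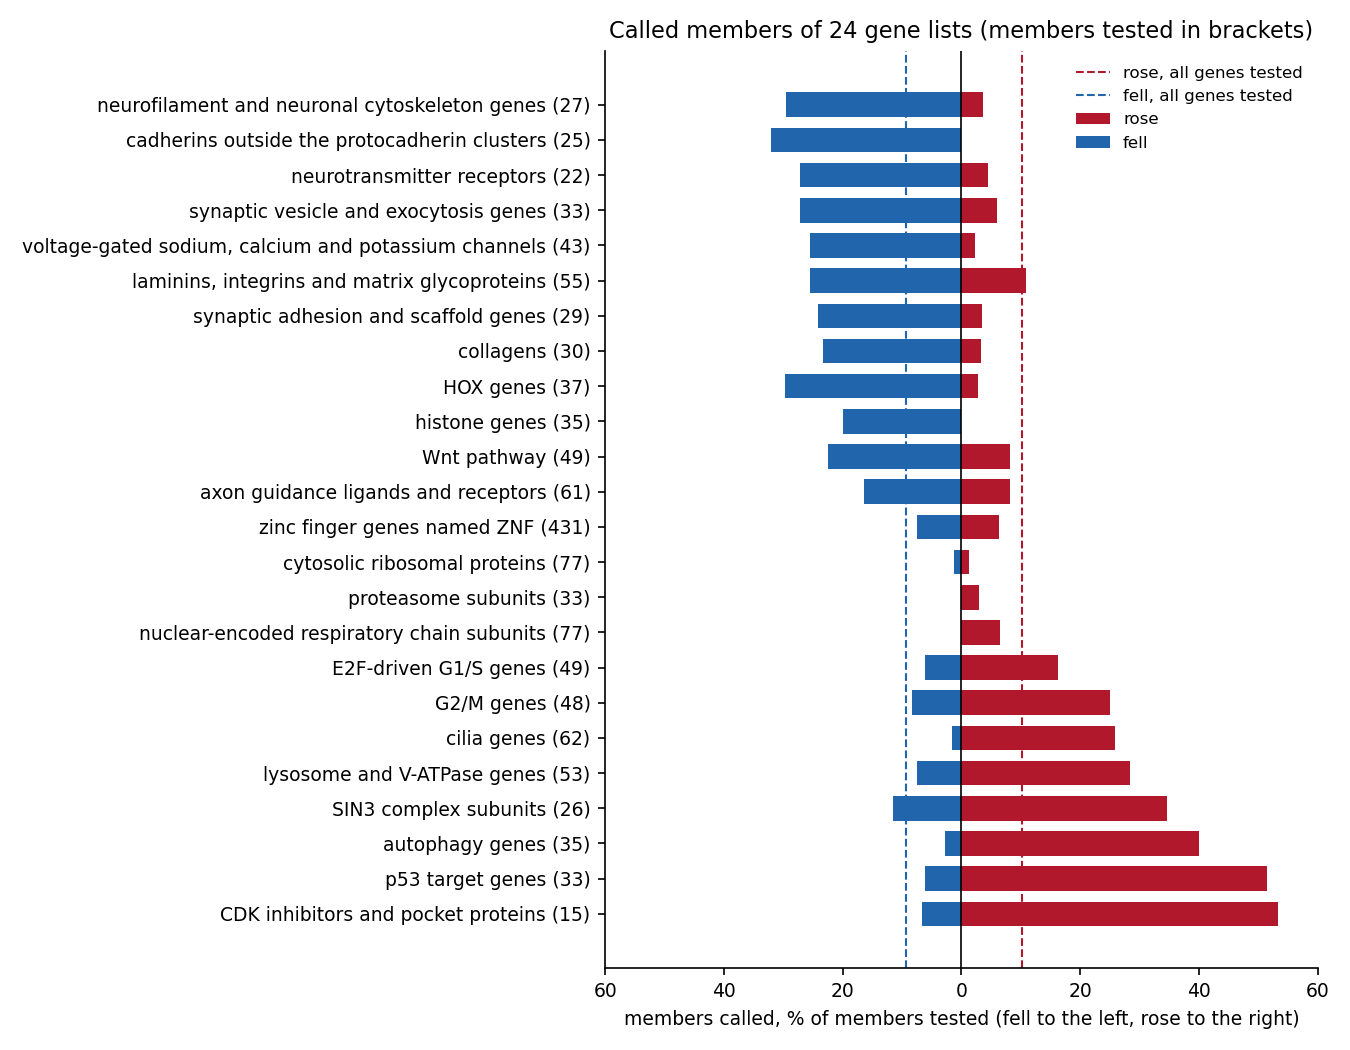
Percent of the tested members of each gene list that rose (red, right) or fell (blue, left), with the shares over all genes tested (10.1% rose, 9.34% fell) as dashed lines and the members tested in brackets. Neuronal, cadherin, matrix, HOX and Wnt lists lie left of the dashed line for falls, CDK inhibitors, p53 targets, autophagy, lysosome, SIN3 complex and cilia lists right of the line for rises, and ribosomal and proteasome genes inside both.

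Gene groups of protein synthesis, protein turnover and respiration held few calls. Of 77 cytosolic ribosomal protein genes 1 rose (RPLP0, 0.34 ± 0.09; not called without any 1 control library, edgeR adjusted p = 0.0717 to 0.105, or with upper-quartile factors, 0.0566) and 1 fell (RPL4, -0.42 ± 0.10; 0.0514 without control replicate 3), of 77 nuclear-encoded respiratory chain genes 5 rose (1 with upper-quartile factors), of 33 proteasome subunits 1 rose, of 22 cytosolic tRNA synthetases 1 rose and 2 fell and of 54 ribosome biogenesis genes 2 rose and 3 fell. By edgeR 0 respiratory chain and proteasome genes fell (1 and 0 at an unadjusted p under 0.05, and 0 by DESeq2). Without SIN3A knockdown replicate 3, 9 ribosomal protein and 12 respiratory chain genes rose, and without SIN3A knockdown replicate 1, 6 ribosomal protein genes and 4 respiratory chain genes fell. The 14 genes of microRNA processing and silencing had 0 calls in either direction by edgeR (3 rises and 0 falls at an unadjusted p under 0.05, and 2 rises and 0 falls by DESeq2). Zinc finger genes named ZNF had 27 rises and 32 falls among 431 (6.26% and 7.42%; GC content 43.3%; 22 and 43 under the GC and length offsets). Without control replicates 1, 2 and 3 their rises numbered 12, 11 and 7 and their falls 18, 19 and 15. Splicing regulators had 3 rises and 8 falls among 59 (5 falls without control replicate 2 or 3; GC content 43.3%; 2 rises and 12 falls under the GC and length offsets), SRSF8 (-1.33 ± 0.13) and PTBP3 (-1.06 ± 0.18) among the falls; the 3′ UTR of SRSF8 holds AGGTCTAA and that of PTBP3 AGGTCTA.

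The NRF2, heat shock chaperone and integrated stress lists each had members that rose and members that fell. Their shares of rises were 27.3%, 17.5% and 13.2%, and of falls 9.09%, 10.0% and 7.9%. Their median levels lie above 6 log2 CPM, where 15.95% of all genes rose and 7.99% fell. HMOX1, heme oxygenase 1, was at 42.7, 49.2 and 47.9 CPM in controls and 19.2, 18.96 and 13.4 CPM in the knockdown (-1.44 ± 0.14, edgeR adjusted p = 9.8e-06), while PRDX1, a peroxidase of the same NRF2 list, rose from 280 ± 17 to 469 ± 80 CPM (0.74 ± 0.10); the list had 6 rises and 2 falls in 22 genes, and 2, 3 and 3 rises without control replicates 1, 2 and 3 and 3 with upper-quartile factors. The heat shock genes HSPA1A and HSPA1B fell (-1.13 ± 0.14 and -0.80 ± 0.09), but they are near-identical copies whose reads the counting may have split, and the chaperone list as a whole had 7 rises and 4 falls in 40 (1, 1 and 0 rises without control replicates 1, 2 and 3, and 4 without SIN3A knockdown replicate 1). With upper-quartile factors that list had 3 rises and 5 falls, and the list of the integrated stress and unfolded protein responses, with 5 rises and 3 falls in 38, had 2 and 10. DDIT4, a stress-induced inhibitor of mTOR signalling, fell by 0.74 ± 0.11 on the log2 scale. The remaining lists are given as counts, where 10.1% of all genes rose and 9.34% fell. Imprinted genes had 16.7% rises and 22.2% falls, glycolysis genes 13.0% of each and snoRNA host transcripts 21.05% rises. Cholesterol synthesis and uptake had 5 rises and 0 falls in 32 (3 and 3 with upper-quartile factors), glycolysis 3 and 3 in 23 and snoRNA host transcripts 4 and 0 in 19 (2 and 4 with upper-quartile factors). MicroRNA hosts had 2 and 2 in 20, translation factors 5 and 3 in 49 (2 and 6 with upper-quartile factors) and imprinted genes 3 and 4 in 18. MYC, MAX and MXD genes had 2 and 0 in 13, tubulins and actins 1 and 1 in 19 and interferon-stimulated genes 2 and 0 in 30. NF-kappaB genes had 1 and 0 in 14, clock genes 1 and 1 in 20 and mitochondrially encoded mRNAs 1 and 0 in 13 (GC content 44.3%, with 1 and 0 under the GC and length offsets). Where these falls numbered 0 by edgeR, those at an unadjusted p under 0.05 were 5 for cholesterol genes, 5 for snoRNA hosts, 1 for the MYC list, 4 for interferon-stimulated genes, 1 for NF-kappaB genes and 0 for mitochondrial mRNAs; DESeq2 called 1 in each of the first 3 lists and 0 in the others. Clustered protocadherins had 3 genes tested and 0 called by edgeR (0 also at an unadjusted p under 0.05 and by DESeq2), fibroblast markers 6 and 0 (2 rises unadjusted, and 0 by DESeq2), and the haematopoietic and endothelial markers 1 fall each in 7 and 3.

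In all, 281 of the genes that the naming rule picked were called in the SIN3A knockdown, and 198 of them differed between the SIN3A and SIN3B knockdowns in the direct test, which called 4517 of 16686 genes (27.1%). Since these genes were picked for a change with SIN3A siRNA, the first share was favoured by the choice. Among the 20 high-expression genes, 4 were called in opposite directions with SIN3A and SIN3B siRNA. CCNE1 was at 28.1 ± 1.4 CPM with SIN3B siRNA, below both other groups, and the direct difference between the knockdowns was 1.83 ± 0.09 (edgeR adjusted p = 7e-11). VAT1 (108 ± 4.4 CPM with SIN3B siRNA) and CDKN1A (47.5 ± 3.9 CPM) had the same order, with direct differences of 1.82 ± 0.08 and 1.53 ± 0.09 (edgeR adjusted p = 1.6e-11 and 6e-10). RAB7A had the reverse order, at 327 ± 7.8 CPM with SIN3B siRNA (-1.98 ± 0.07, edgeR adjusted p = 4e-13). SMIM10L2B, among the largest rises, was likewise at 3.93 ± 0.31 CPM with SIN3B siRNA, against 8.76 ± 0.59 CPM in controls and 21.8 ± 2.6 CPM with SIN3A siRNA. By contrast no difference was called for GOLGA4 (direct difference 0.06 ± 0.13, edgeR adjusted p = 0.804), ANKRD12 (0.07 ± 0.17, 0.82), EIF5A2 (0.45 ± 0.18, 0.0723) or LAMA1 (-0.10 ± 0.12, 0.566), whose values with both siRNAs lay on one side of the controls.

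**Figure D5:**
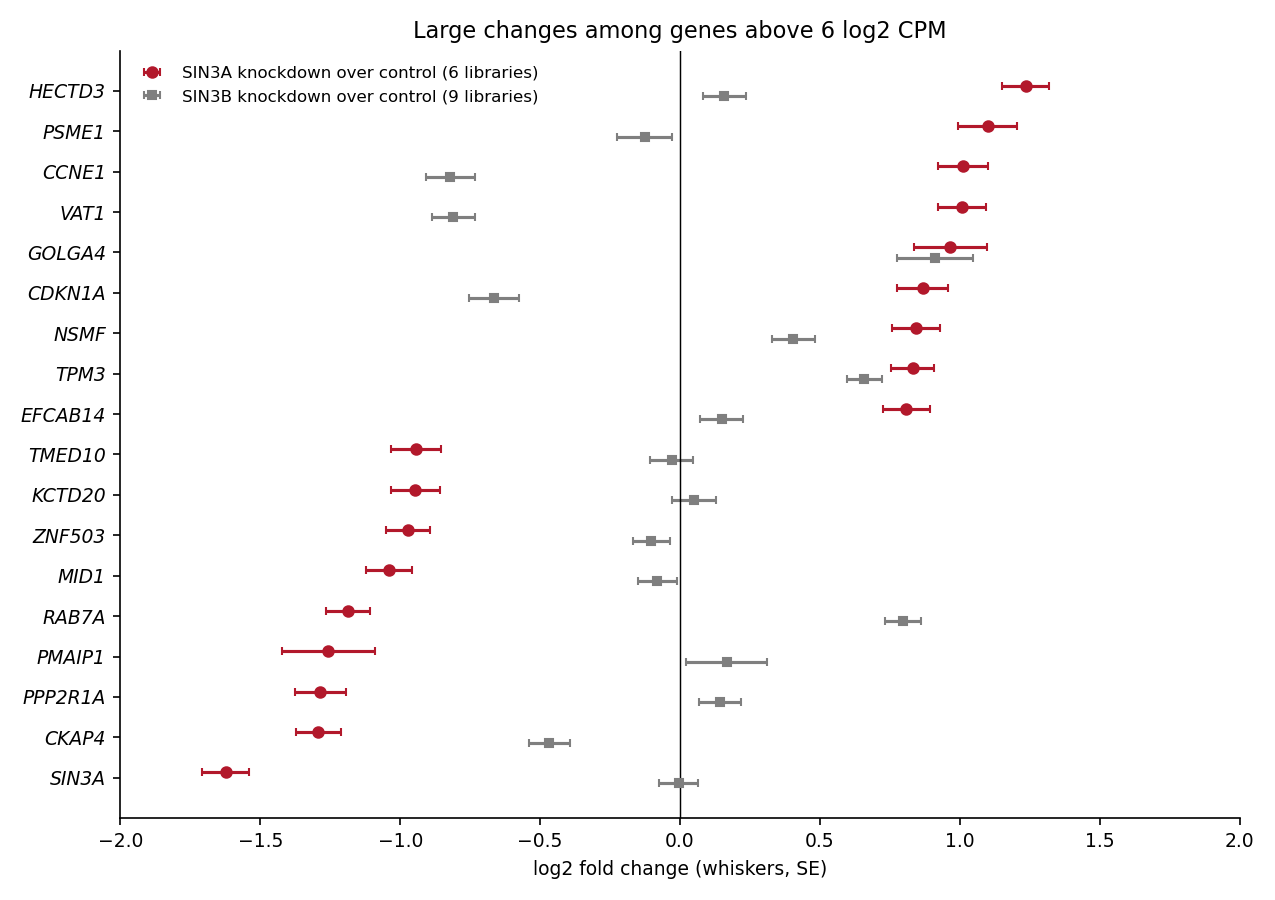
Log2 fold change (points) and SE (whiskers) against control of genes named among the 10 largest rises and 10 largest falls above 6 log2 CPM, for the SIN3A knockdown (red circles, 6-library fit) and the SIN3B knockdown (grey squares, 9-library fit), which share the control libraries. CCNE1, VAT1 and CDKN1A are above 0 with SIN3A siRNA and below 0 with SIN3B siRNA, RAB7A the reverse, and GOLGA4 and TPM3 are above 0 with both.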

How the data were processed

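Poly-A RNA of HEK293T cells was sequenced from 3 control and 3 SIN3A siRNA libraries (groups from sample titles). The authors deposited whole-number counts per gene and, for each library, FPKM values (fragments scaled for gene length and depth). Per the submitters' processing notes, Trimmomatic 0.36, HISAT2 2.1.0, HTSeq and DESeq2 1.20.0 were used, and the build is GRCh38; its strand setting is not given in the sources used here. Deposited counts of the 6 libraries were filtered (filterByExpr, minimum count 10, minimum total 15), TMM-scaled and tested with edgeR 4.0.16 (quasi-likelihood test, 4 residual degrees of freedom, Benjamini-Hochberg adjustment over all genes tested, threshold 0.05). A fit of all 9 libraries gave the SIN3B values and the direct test. The script was tested on simulated data. Symbols, overlaps and transcripts came from GENCODE 29, promoters from RefSeq. The text names the 15 largest rises and falls above 1 log2 CPM, the 10 largest above 6 log2 CPM, and, in each of 56 lists, the 5 called members of lowest p and up to 3 in the minority direction, from which it describes some; genes named for a promoter match were chosen after their values were seen. The comparison's markers, the lists and the 3′ UTR sequences were chosen with earlier results of these data known. The 19 alternatives included DESeq2 1.42.0, limma 3.58.1 on log2(FPKM + 1) and log2(FPKM + 0.1), other scalings and filters, a replicate block, and leaving out each library. Some genes that this rule picks are not reported here.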

Additional observations from a re-analysis of the deposited data

How the results depend on the processing

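Of 281 named genes called in the SIN3A knockdown, 174 were called under every alternative in which they were tested, and none changed direction under any of the 19. Limma on log2(FPKM + 1) and log2(FPKM + 0.1) gave fewer calls: 985 and 949 rises against 1621, 2014 calls in all against 3113 with the smaller pseudocount, 250 changes of at least 2-fold against 418 with the larger, and 305 and 296 called list members against 458. The cause was not tested. Leaving out 1 library gave 1492 to 3289 calls in all, 719 to 1776 rises, 773 to 1513 falls, 301 to 466 changes of at least 2-fold and 229 to 505 called list members, with the lower ends from fits without a control library. Every fit that leaves out 1 library has fewer samples. Why the counts were lower without a control library than without a knockdown library was not tested. Of the named genes, 74, 71 and 85 lost their call without control replicates 1, 2 and 3 and 13, 37 and 21 without SIN3A knockdown replicates 1, 2 and 3. Same-numbered control and knockdown libraries did not deviate together (correlations across genes of -0.012, 0.0387 and -0.0101), so the numbers were not taken as pairs. A fit with the replicate block gave 2718 calls, 1373 rises and 1345 falls, 378 changes of at least 2-fold and 410 called list members. The other alternatives kept these 5 counts within 1.5 times of their main values. Depth limits genes whose knockdown level lies near the floor, for which fold changes depend on the prior count.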
